A study of Mus musculus with 8 samples.

Results

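The expression of 10 genes of the oxidative stress and metal response was followed in primary mouse mesothelial cells (MCs) with and without Caveolin-1. They were taken by name from the gene table of the series, and all 10 were found among its 13687 genes. Of these, 8 are NRF2 and genes commonly used as readouts of its activity (Nfe2l2, Nqo1, Hmox1, Slc7a11, Gclc, Gclm, Txnrd1 and Srxn1), and the other two are the metallothioneins Mt1 and Mt2. The rule names genes and sets no threshold on their values.

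RNA-seq had been carried out on 8 cultures of peritoneal MCs, 2 cultures in each of 4 groups, fewer per group than the study states for this experiment, and these 8 are what was analysed here. The WT groups came from 2 WT mice and the CAV1-/- groups from 2 littermates of the B6.Cg-CAV1tm1mls/J line, which lacks Caveolin-1 in every cell of the animal. Each animal gave 1 culture left static and 1 culture exposed to mechanical stretch for 24 h after reaching confluence. The cells had been released from parietal peritoneum with trypsin and grown in medium with fetal calf serum and a supplement containing insulin and transferrin, and none of the groups received an oxidant, a metal or a drug. The study used mice of both sexes for experiments on cultured cells, and the age and sex of each of these 4 mice were not given in the sources used here. Cav1 itself stood at 247 to 764 normalised counts per 1000000 reads (CPM) in the WT libraries and at 12.8 to 34.5 CPM in the CAV1-/- libraries.

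Library totals ranged from 9777738 to 21203938 reads, and every stretched library (15861571 reads or more) was deeper than every static library (14237503 reads or fewer). Depth thus moved with condition, although the lowest value of any of the 10 genes rested on 169 reads. Both cultures of CAV1-/- replicate 1 stood apart, with a summed level of 11 leukocyte markers of 4690 CPM (static) and 4731 CPM (stretched) against 79.9 to 462 CPM in the other 6 cultures. Lyz2 alone gave 3647 CPM (static) and 3920 CPM (stretched) of these 2 sums. Of these 11 markers, 10 were higher in both CAV1-/- replicate 1 cultures than in all others, and none was at 0 in all libraries. Among the other 6 cultures, the marker sum was 439 CPM (static) and 462 CPM (stretched) in WT replicate 1. It was 79.9 and 82.7 CPM in WT replicate 2, and 300 and 332 CPM in CAV1-/- replicate 2. The mesothelial label held in part: the sum of 11 mesothelial markers was 2959 to 3898 CPM in WT and 854 to 1116 CPM in CAV1-/- cultures, and the defining marker Calb2 was not in the table used here. The sum of 6 fibroblast markers was 7150 to 17060 CPM and was mostly Col1a1, while Dpt stood at 0.082 and 0.049 CPM, under 3 reads, in the CAV1-/- replicate 1 cultures. In bulk RNA, fewer cells of a type and less RNA per cell cannot be told apart.

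NRF2, encoded by Nfe2l2, is a transcription factor that is continuously degraded through its adaptor KEAP1 and escapes degradation when KEAP1 is modified by oxidants or electrophiles. It then pairs with small MAF proteins on antioxidant response elements and raises the transcription of genes for quinone reduction, glutathione synthesis, the thioredoxin system and heme breakdown. Because this control acts largely on the protein, the mRNA level of Nfe2l2 is not a measure of NRF2 activity. Metallothioneins are small cysteine-rich proteins that bind zinc and copper, and their genes are switched on by the metal-sensing factor MTF1 through metal response elements, and also by glucocorticoids and oxidative stress.

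Mt1 and Mt2 are neighbours on mouse chromosome 8, both on the plus strand, separated by 5513 bases (Mt2 at chr8:94172664-94173568 and Mt1 at chr8:94179082-94180327 in GRCm38, GENCODE M21). Their coding sequences are shown because the 2 genes are near copies whose reads could in principle be confused. Each is 183 bases long without the stop codon, and capitals mark the cysteine codons.
Mt1: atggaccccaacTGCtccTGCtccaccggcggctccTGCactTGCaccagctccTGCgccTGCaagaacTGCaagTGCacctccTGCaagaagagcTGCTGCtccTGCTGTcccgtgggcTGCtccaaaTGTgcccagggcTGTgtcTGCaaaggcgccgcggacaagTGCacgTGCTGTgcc
Mt2: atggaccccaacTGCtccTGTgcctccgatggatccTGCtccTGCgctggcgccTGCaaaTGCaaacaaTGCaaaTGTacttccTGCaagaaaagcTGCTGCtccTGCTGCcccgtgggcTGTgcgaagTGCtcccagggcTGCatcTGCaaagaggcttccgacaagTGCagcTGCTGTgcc

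Cysteine took 20 of the 61 codons in each sequence, and all 20 sat at the same codon positions. The 2 coding sequences were identical at 145 of 183 bases (79.2%). No stretch of 61 bases, the read length, was shared by the longest annotated coding transcripts of the 2 genes, and the longest shared run was 20 bases. A perfectly sequenced read within these transcripts therefore matched only 1 of them. A separate limit applied to Mt2, whose locus overlaps the antisense non-coding gene Gm45774. The library kit does not mark strand, so reads from bases that these 2 genes share cannot be told apart by strand. How many exon bases they share was not determined.

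The 250 bases before the RefSeq start of each metallothionein gene (GRCm38.p6, plus strand) are shown because both genes were lower after stretch in every animal. Capitals mark the core of the metal response element, searched as TGCNCNC on both strands. The Mt1 window is chr8:94178839-94179088 and the Mt2 window chr8:94172368-94172617, whose 250 bases all overlap annotated exons, counted on either strand.
Mt1: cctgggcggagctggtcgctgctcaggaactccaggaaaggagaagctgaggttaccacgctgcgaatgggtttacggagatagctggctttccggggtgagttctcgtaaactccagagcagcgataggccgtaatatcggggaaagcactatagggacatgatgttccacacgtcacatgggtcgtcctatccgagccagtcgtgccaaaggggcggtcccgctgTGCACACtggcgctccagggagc
Mt2: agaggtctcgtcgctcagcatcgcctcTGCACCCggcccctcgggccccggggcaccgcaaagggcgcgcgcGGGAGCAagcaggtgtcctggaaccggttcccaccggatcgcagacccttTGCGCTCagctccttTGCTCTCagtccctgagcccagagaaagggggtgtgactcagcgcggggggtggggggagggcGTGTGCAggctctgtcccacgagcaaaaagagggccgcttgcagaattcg

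Mt2 held 5 such cores, a number reached by 0.344% of the 32851 mouse promoter windows of this length, and Mt1 held 1. The Mt1 window ends near the outermost annotated start of a gene with 3 transcripts, and the bases after it were not searched. The 2 counts therefore do not rank the genes by their metal response elements. At least 1 core was present in 44.4% of the windows. The antioxidant response element core was searched as TGACNNNGC, present in 10.2% of all windows. Among the 8 genes with a window in the table (Hmox1 and Gclc had none there), it was found once each for Nfe2l2, Gclm, Mt2 and 1 of the 3 Txnrd1 windows. The Gclm match read TGACGGTGC on the minus strand and overlapped a match to the metal response core. A match of letters is a description and not evidence of binding, and a missing match speaks only for these 250 bases.

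Per kilobase of the longest coding transcript, so that genes could be compared with each other, Hmox1 had the highest median level over the 8 cultures (390 CPM per kb). Mt1 (274), Mt2 (188) and Txnrd1 (117 CPM per kb) followed, and then Nfe2l2 (67.1), Nqo1 (58.0) and Srxn1 (42.7 CPM per kb). The lowest medians were those of Gclm (18.3), Gclc (14.2) and Slc7a11 (2.94 CPM per kb). Neighbours in this order had overlapping ranges over the 8 cultures, except Srxn1 (33.0 to 63.7) and Gclm (11.2 to 26.2 CPM per kb). As a ratio of highest to lowest culture, Slc7a11 varied most, by 17.4-fold from 1.48 to 25.7 CPM per kb.

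**Figure D1:**
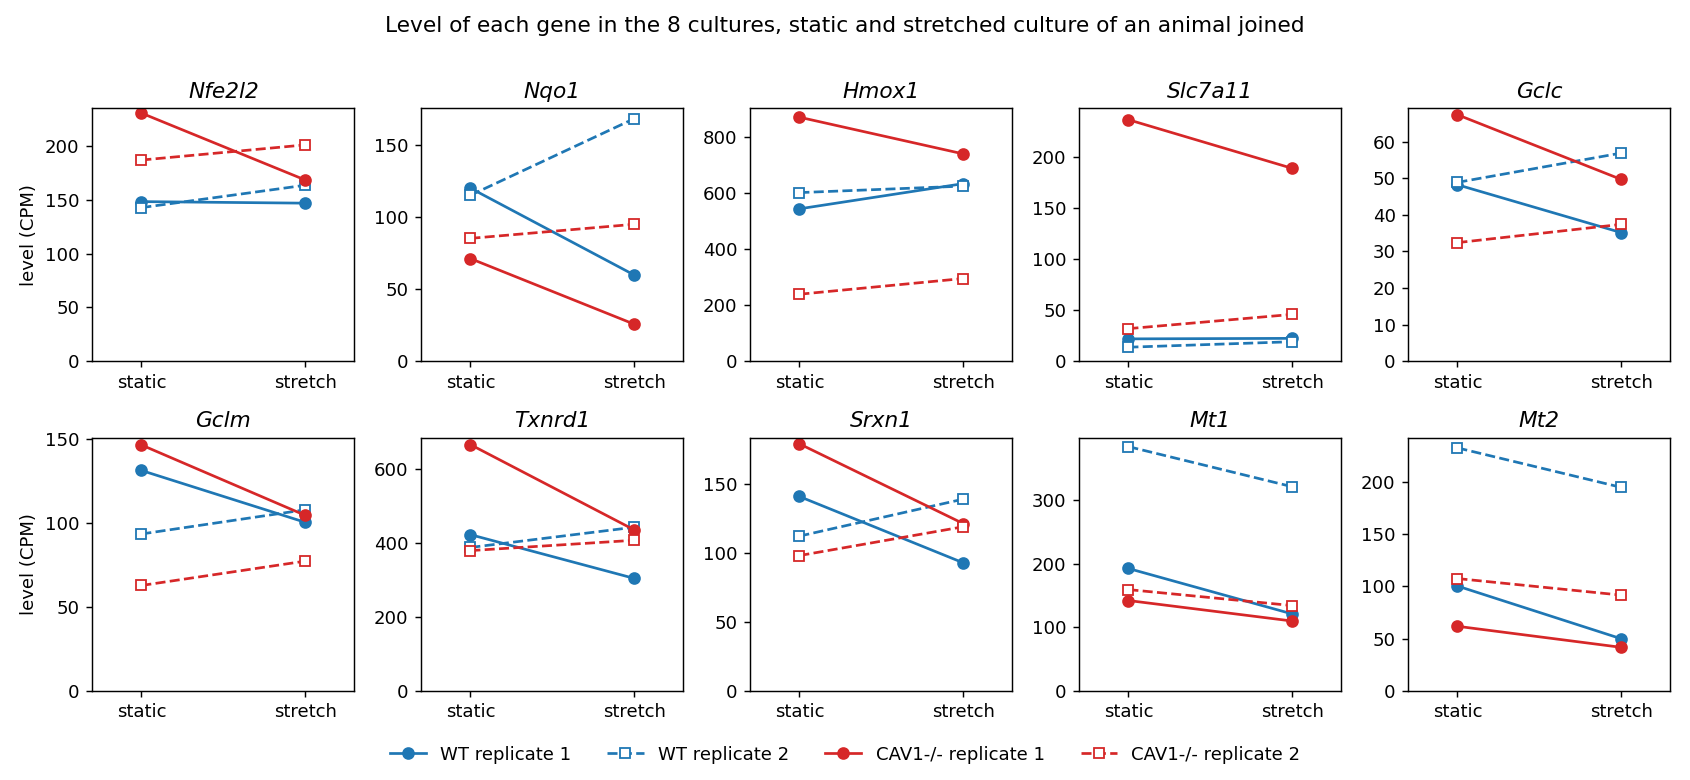
Level of each of the 10 genes (y axis, CPM, from 0) in the static and stretched culture of each animal (x axis). Lines join the 2 cultures of an animal, with WT in blue, CAV1-/- in red, replicate 1 as filled circles and replicate 2 as open squares. Slc7a11 reached 237 CPM in CAV1-/- replicate 1 and stayed at 45.9 CPM or below elsewhere apart from the stretched culture of that animal, while Mt1 and Mt2 sloped downward in all 4 animals.

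The first question was whether stretch changed these genes. Mt1 and Mt2 were lower upon stretch in 4 of 4 animals, and 6 of the 8 NRF2 genes split by replicate number. No gene of the 10 passed an adjusted p of 0.05 in WT cells, in CAV1-/- cells or in the average over both genotypes (limma across 13665 genes, Benjamini-Hochberg). The same test called 0 genes of the whole table in each of these 3 comparisons (0.0%), and 310, 286 and 647 genes had an unadjusted p of 0.05 or less. EdgeR without a block also called 0 genes in each, and DESeq2 called 3, 7 and 39, none of them among the 10. A set of 2 cultures per group cannot go below p = 0.333 in an exact two-sided permutation test, and 4 pairs cannot go below 0.125.

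Mt1 was measured at 192 and 384 CPM in the static WT cultures (replicates 1 and 2) and at 121 and 321 CPM after stretch. In CAV1-/- cultures it was 142 and 159 CPM static and 110 and 134 CPM stretched. Every stretched culture was below the static culture of its own animal, and in CAV1-/- cells the stretched group lay below the static group, as for 11.9% of all genes. The groups overlapped in WT because the 2 WT animals differed by more than stretch changed either of them.

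Mt2 followed the same course, with 100 and 233 CPM in static and 49.8 and 195 CPM in stretched WT cultures. In CAV1-/- cultures, Mt2 was 61.8 and 108 CPM static and 41.6 and 91.7 CPM stretched. Static and stretched groups overlapped in both genotypes, and replicate 2 was above replicate 1 of the same group in all 4 groups for both metallothioneins.

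Averaged over genotypes, the log2 difference upon stretch was -0.39 for Mt1 (SE 0.36, adjusted p = 0.991) and -0.51 for Mt2 (SE 0.54, adjusted p = 0.999), from limma on log2(CPM + 1), a scale that slightly understates changes of low genes. With 1 culture left out these averages ranged from -0.74 (without WT stretched replicate 2) to -0.035 (without WT stretched replicate 1) for Mt1 and, with the same cultures left out, from -0.998 to -0.023 for Mt2. These fits did not pair the cultures of an animal, so the level of an animal left with 1 culture entered the stretch effect. Changing the same way in all 4 animals was not rare: 16.9% of the genes tested were lower in 4 of 4 animals and 14.5% were higher. With the animal as a block, which removes the level each mouse started from, 201 genes of the table were called (1.47%) against 0 without the block. In that fit, Mt1 had an adjusted p of 0.0743 (unadjusted 0.00255) and Mt2 an adjusted p of 0.103 (unadjusted 0.00616), so neither passed. The edgeR quasi-likelihood test on the recovered reads with the same block gave adjusted p-values of 0.0921 for Mt1 and 0.123 for Mt2, with 152 genes called (1.11%). Over all alternatives the adjusted p ran from 0.0743 to 1.00 for Mt1 and from 0.103 to 1.00 for Mt2.

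Within each genotype the log2 difference of Mt1 was -0.46 in WT and -0.31 in CAV1-/- cells (SE 0.51 in each, adjusted p = 1 in each). For Mt2 it was -0.63 in WT and -0.39 in CAV1-/- cells (SE 0.77 in each, adjusted p = 1 in each). Blocking by animal lowered the SE to 0.11 for Mt1 and 0.18 for Mt2 in each genotype. In that limma fit, the adjusted p of Mt1 was 0.221 in WT and 0.343 in CAV1-/- cells (unadjusted 0.00577 and 0.0329). For Mt2 the adjusted p was 0.2575 and 0.405 (unadjusted 0.0118 and 0.0678), so neither gene passed. The difference between these stretch effects, tested as an interaction, was 0.15 for Mt1 (SE 0.72) and 0.23 for Mt2 (SE 1.09), with adjusted p = 1 for both. With the animal as a block the SE was 0.16 for Mt1 and 0.25 for Mt2, and the adjusted p was 0.950 for each.

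**Figure D2:**
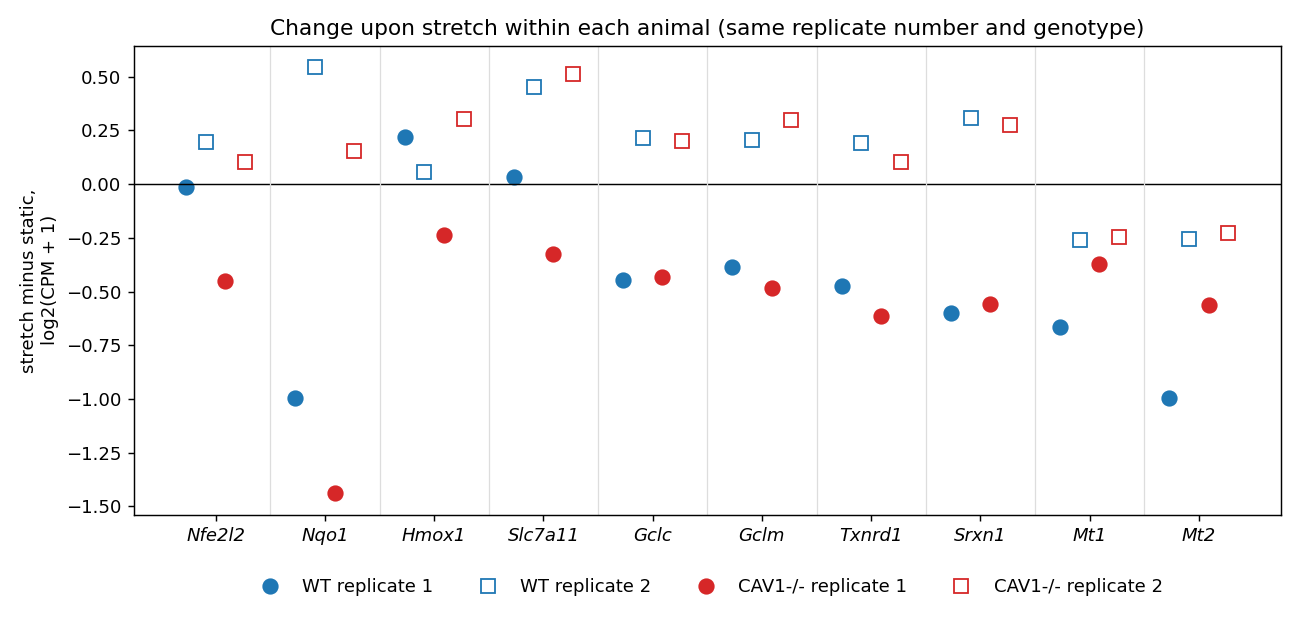
Change upon stretch of each gene within each animal (y axis, stretched minus static culture, in log2(CPM + 1)). Filled circles are replicate 1 and open squares replicate 2, with WT in blue and CAV1-/- in red, and the line marks no change. Mt1 and Mt2 lie below the line in all 4 animals, while 6 of the 8 NRF2 genes lie below it in both replicate 1 animals and above it in both replicate 2 animals. Of these 6, Nfe2l2 lies only just below the line in WT replicate 1 (-0.014).

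Nqo1, the quinone reductase that is a standard NRF2 readout, had the largest change of the 10 genes in CAV1-/- replicate 1 and in WT replicate 2. It went from 120 to 59.8 CPM in WT replicate 1 and from 71.2 to 25.6 CPM in CAV1-/- replicate 1. In replicate 2 it went the other way, from 115 to 168 CPM in WT and from 85.2 to 95.0 CPM in CAV1-/- cells. The 2 static WT cultures were nearly alike, so this spread arose among the stretched cultures, which spanned 25.6 to 168 CPM.

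Txnrd1 and Srxn1, which serve the thioredoxin system, showed the same split. Txnrd1, the cytosolic thioredoxin reductase, went from 422 to 304 CPM in WT replicate 1 and from 665 to 435 CPM in CAV1-/- replicate 1. Its replicate 2 cultures went from 387 to 442 CPM in WT and from 379 to 407 CPM in CAV1-/- cells. Within a replicate number, both genotypes went the same way. Srxn1, the sulfiredoxin that restores over-oxidised peroxiredoxins, was 141 (static) and 92.7 CPM (stretched) in WT replicate 1 and 179 and 121 CPM in CAV1-/- replicate 1. In replicate 2, Srxn1 went from 112 to 139 CPM in WT and from 98.0 to 119 CPM in CAV1-/- cells.

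Of the genes for glutathione synthesis, Gclc and Gclm encode the catalytic and the modifier subunit of glutamate-cysteine ligase. Gclc went from 48.2 to 35.1 CPM in WT and from 67.3 to 49.6 CPM in CAV1-/- cells in replicate 1. In replicate 2, Gclc went from 48.8 to 56.9 CPM in WT and from 32.4 to 37.4 CPM in CAV1-/- cells. Gclm went from 131 to 100 CPM in WT and from 146 to 104 CPM in CAV1-/- cells in replicate 1, against 93.3 to 108 and 62.6 to 77.1 CPM in replicate 2. The 2 subunits thus moved in the same direction in each of the 4 animals.

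Nfe2l2 itself changed less, with log2 differences of -0.014 and 0.20 in WT replicates 1 and 2 and of -0.45 and 0.10 in CAV1-/- replicates 1 and 2. Hmox1, the enzyme that breaks heme down to biliverdin, iron and carbon monoxide, departed from the split in WT, where it was higher upon stretch in both animals (by 0.22 and 0.055 on the log2 scale) without overlap of the groups, as for 13.9% of all genes. Its change was -0.24 in CAV1-/- replicate 1 and 0.30 in replicate 2. Slc7a11, the cystine carrier of the cystine-glutamate exchanger, changed by 0.032 and 0.45 in WT and by -0.32 and 0.51 in CAV1-/- replicates 1 and 2. All 8 NRF2 genes were therefore higher upon stretch in both replicate 2 animals, all 8 were lower in CAV1-/- replicate 1, and 6 were lower in WT replicate 1.

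Counted over genes, 6 of the 8 NRF2 genes (Nfe2l2, Nqo1, Gclc, Gclm, Txnrd1 and Srxn1) were lower upon stretch in both replicate 1 animals and higher in both replicate 2 animals, a pattern met by 6.06% of the genes tested. The opposite pattern was met by 5.8% of all genes and by none of the 8. The rule for this count was set after the values were seen, so it is given without a test. No minimum change was set, and Nfe2l2 counts as lower in WT replicate 1 at -0.014 on the log2 scale. The median change of the 8 genes was -0.42 and -0.47 in WT and CAV1-/- replicate 1, and 0.21 and 0.24 in WT and CAV1-/- replicate 2, on the log2 scale. The median over all genes lay between -0.025 and -0.00023 in the 4 animals. Among the 110 other genes of the pathway lists described further on, 17 (15.5%) had the same pattern, among them Prdx6, Cat, Tkt, Ftl1, Gstp1 and Bach1, and 5 (4.55%) had the opposite one. What the replicate number marks was not given in the sources used here. In both genotypes and conditions, replicate 1 had the higher leukocyte marker sum and the lower fibroblast marker sum. The fibroblast sum was 7150 to 8161 CPM in replicate 1 and 11130 to 17060 CPM in replicate 2. A link between these marker sums and the split was not tested. The stretch effect averaged over genotypes had a median of -0.10 over these 8 genes and ran down to -0.43 for Nqo1 (SE 0.49, adjusted p = 0.999).

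The second question was whether loss of Caveolin-1 changed the genes. Slc7a11 and Nfe2l2 were higher in CAV1-/- than in WT cells in all cultures, Nqo1 and the metallothioneins tended to lower values, and none of the 10 passed an adjusted p of 0.05 in static or stretched cells. Over the whole table the test called 10 genes in static cells (0.0732%) and 8 genes in stretched cells (0.0585%). The lowest adjusted p among the 10 genes was 0.416 in static and 0.876 in stretched cells (limma).

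Nfe2l2 was 148 and 143 CPM in static and 147 and 164 CPM in stretched WT cultures. The CAV1-/- cultures held 231 and 187 CPM static and 169 and 201 CPM stretched. All 4 CAV1-/- cultures lay above all 4 WT cultures, in which respect Nfe2l2 was 1 of 527 genes (3.86% of those tested). The 4 cultures of each genotype came from 2 animals. None of the 10 genes lay below WT in all 4 cultures, as 5.88% of all genes did. The log2 difference was 0.51 in static cells (SE 0.15, unadjusted p = 0.0152, adjusted p = 0.416) and 0.25 in stretched cells (SE 0.15, adjusted p = 0.950). From 1 mean per animal over both conditions it was 0.38 (limma, adjusted p = 0.715). Without the 2 CAV1-/- replicate 1 cultures, a choice made after seeing the data, it was 0.36 static and 0.37 stretched (SE 0.14 in each). Those last values rest on 1 CAV1-/- animal.

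Slc7a11 showed the widest gap. It was 21.8 and 13.6 CPM in static WT cultures and 22.3 and 19.0 CPM in stretched ones, against 237 and 31.9 CPM in static and 189 and 45.9 CPM in stretched CAV1-/- cultures. The 4 CAV1-/- cultures were above the 4 WT cultures, but the 2 CAV1-/- animals differed from each other by 7.43-fold in static and 4.12-fold in stretched culture. Replicate 2 alone was 1.80-fold (static) and 2.22-fold (stretched) above the WT mean.

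The log2 difference of Slc7a11 was 2.27 in static cells (SE 1.02, adjusted p = 0.665) and 2.13 in stretched cells (SE 1.02, adjusted p = 0.876) by limma. DESeq2 on the recovered reads was the only tool that called it, and only in static cells (adjusted p = 0.0402, with a range of 0.0402 to 0.887 over all alternatives). Without both CAV1-/- replicate 1 cultures, the log2 difference was 0.85 in static and 1.12 in stretched cells (SE 0.33 in each, adjusted p = 0.592 and 0.621). Those 2 cultures were the ones with the leukocyte marker sum of 4690 and 4731 CPM, and the part of this signal in the Slc7a11 level was not tested.

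**Figure D3:**
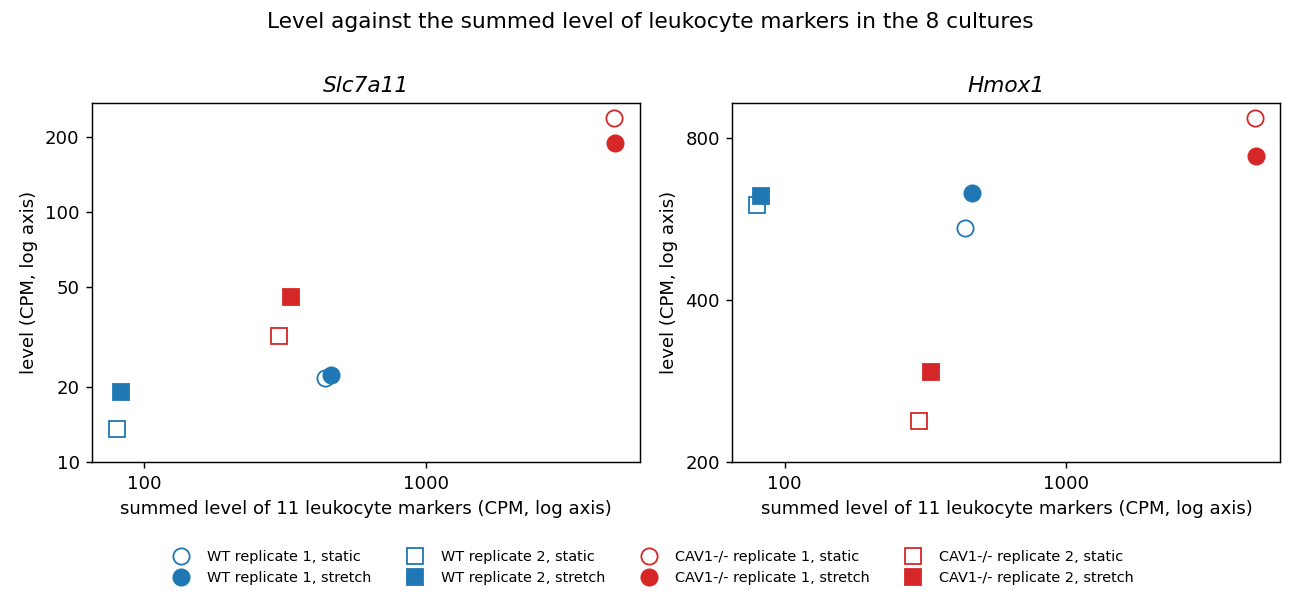
Level of Slc7a11 (left) and Hmox1 (right) on the y axis against the summed level of 11 leukocyte markers on the x axis in the 8 cultures, both in CPM on log axes. Colour gives the genotype, shape the replicate, and filled symbols are stretched cultures. CAV1-/- replicate 1 sits at the upper right in both panels, CAV1-/- replicate 2 is the lowest animal for Hmox1, and for Slc7a11 it lies above both WT animals at a marker sum of 332 CPM or less.

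Hmox1 was opposite in the 2 CAV1-/- animals. The WT cultures were close together, at 543 and 601 CPM static and 633 and 624 CPM stretched. CAV1-/- replicate 1 was above them all, at 870 CPM static and 739 CPM stretched, while replicate 2 was below them all, at 238 and 295 CPM. Levels above those of the other 6 cultures in both CAV1-/- replicate 1 cultures were seen for 2 of the 10 genes, Slc7a11 and Hmox1, and for 12.2% of all genes tested.

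The log2 difference of Hmox1 between genotypes was -0.33 in static and -0.43 in stretched cells (SE 0.66 in each, adjusted p = 0.955 and 1.00), which averages over animals that lay on opposite sides of WT. Without the CAV1-/- replicate 1 cultures it was -1.26 in static cells (SE 0.15, adjusted p = 0.246) and -1.09 in stretched cells (SE 0.15, adjusted p = 0.328). Those values rest on 1 CAV1-/- animal, which is assumed to vary like the WT animals.

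Nqo1 was lower in both static CAV1-/- cultures (71.2 and 85.2 CPM) than in both static WT cultures (120 and 115 CPM), as were 20.8% of all genes tested. The stretched groups overlapped. The log2 difference was -0.59 in static cells (adjusted p = 0.908) and -1.005 in stretched cells (adjusted p = 0.958), with an SE of 0.69 in each. Without the CAV1-/- replicate 1 cultures, which held the lowest Nqo1 value, these differences were -0.46 and -0.080 (SE 0.64 in each).

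Gclc, Gclm, Txnrd1 and Srxn1 gave no separation of the genotypes. In static culture, CAV1-/- replicate 1 had the highest and CAV1-/- replicate 2 the lowest value of the 4 cultures for each of these 4 genes. The ratio of static CAV1-/- replicate 1 to replicate 2 was 2.08 for Gclc, 2.34 for Gclm, 1.76 for Txnrd1 and 1.83 for Srxn1. In stretched culture the same ratios were 1.33, 1.35, 1.07 and 1.02. The adjusted p-values of the 4 genes ranged from 0.880 to 0.993 in static cells.

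The metallothioneins were lower on average in CAV1-/- cells. Static Mt1 did not overlap between genotypes (142 and 159 against 192 and 384 CPM), as for 20.8% of all genes in this direction, giving a log2 difference of -0.85 (SE 0.51, adjusted p = 0.789), and the stretched difference was -0.70 (SE 0.51, adjusted p = 0.959). The genotype difference of Mt2 was -0.90 static and -0.67 stretched (SE 0.77 in each, adjusted p = 0.857 and 0.991), with overlapping groups because WT replicate 1 was close to the CAV1-/- cultures. Without CAV1-/- replicate 1, the differences were -0.77 and -0.55 for Mt1 and -0.50 and -0.11 for Mt2. The 2 WT animals differed from each other as much as the genotypes did: static WT replicate 1 had 0.501 of the Mt1 level and 0.431 of the Mt2 level of replicate 2.

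**Figure D4:**
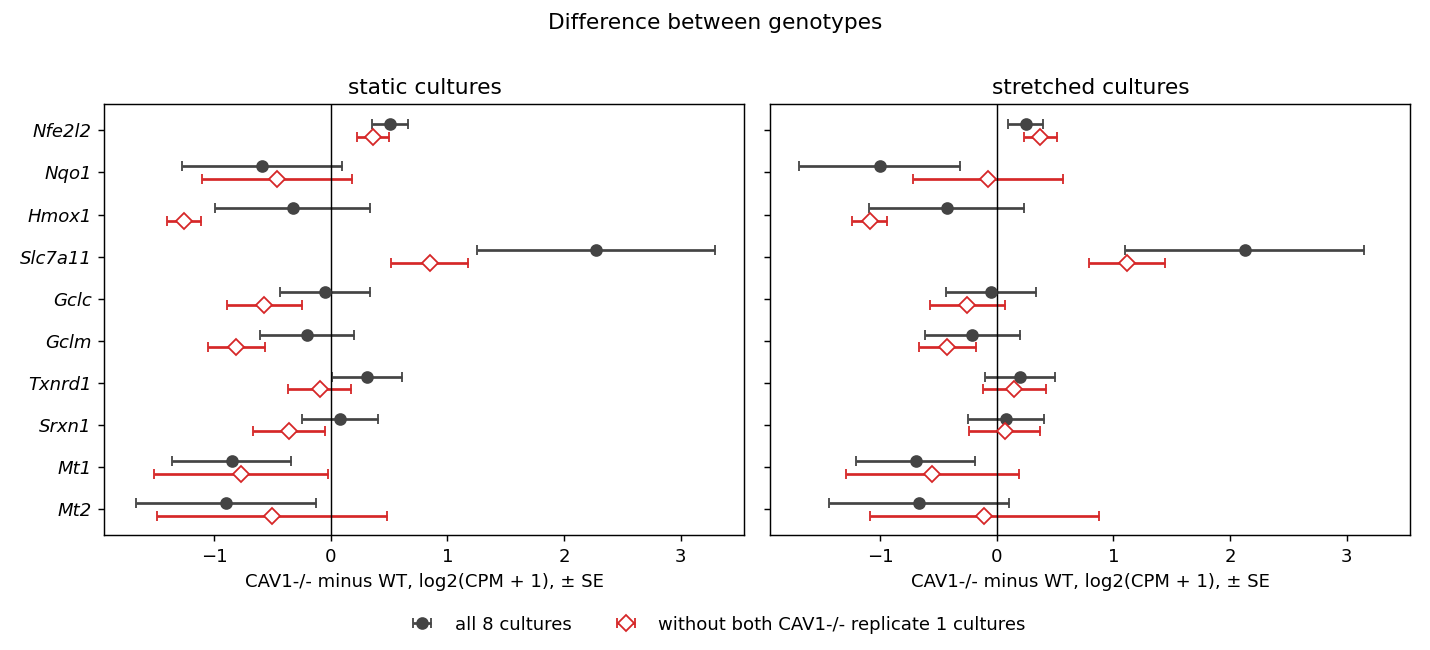
Difference between CAV1-/- and WT cells for each gene (x axis, log2(CPM + 1), positive where CAV1-/- was higher) in static (left) and stretched cultures (right). Points are the limma estimates and bars 1 SE, with all 8 cultures in grey and without both CAV1-/- replicate 1 cultures in red. Slc7a11 drops from 2.27 to 0.85 and Hmox1 from -0.33 to -1.26 in static cells when those cultures are left out, whereas Nfe2l2 goes from 0.51 to 0.36.

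The interaction of genotype and stretch was tested last. None of the 10 genes passed (adjusted p = 1 for all), nor did any of the 13665 genes (0.0%), of which 66 had an unadjusted p of 0.05 or less, and edgeR and DESeq2 also called 0. In none of the 10 genes did the changes of the CAV1-/- animals lie wholly above or below those of the WT animals, as they did in 18.1% and 16.3% of all genes. The interaction medians were -0.11 for the 8 NRF2 genes and 0.014 for all genes.

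The genes whose levels ran most like those of the 10 were found by Pearson correlation of log2(CPM + 1) over the 8 cultures, as a description, since both cultures of an animal share its cells. The search covered genes with a mean of at least 5 CPM, 10797 in the table. The genes named were picked as the highest of that many values, so the size of their correlations was not tested. Slc7a11 was most like F10, coagulation factor X (0.996), Lipa, the lysosomal acid lipase (0.995), and Atp6v0d2, a subunit of the vacuolar proton pump (0.995). Hmox1 was closest to Ctgf (0.991) and Cst3 (0.975), and Nqo1 to Snx4 (0.974) and Zdhhc15 (0.973). Mt1 ran with Prelp (0.983) and Tab1 (0.982), and Mt2 with Exosc10 (0.995) and Arhgef10l (0.985). None of these leading genes was itself among the 10. Nfe2l2 was less closely matched by any gene, with Dera at 0.953. Gclc ran with Vim, the intermediate filament vimentin (0.983), Gclm with Anxa2 (0.967), Txnrd1 with Gfm1 (0.949) and Srxn1 with Ttc37 (0.933).

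The wider pathway was read from 10 lists of 117 other genes, of which 110 were in the tested table. They covered NRF2 regulators, glutathione use, glutathione S-transferases, thioredoxins and peroxiredoxins, heme and iron handling, NADPH production, superoxide dismutases with catalase, other detoxifying targets, metal response with zinc transport, and glucocorticoid-responsive genes. None of the 110 passed the adjusted test in any of the 6 comparisons in the main limma fit, which has no block. With a block, limma called 2 higher and 2 lower in static CAV1-/- cells, and 1 higher and 1 lower in stretched ones. Upon stretch, averaged over genotypes, it called 1 lower. DESeq2 also called some of the 110, as given further on. Between genotypes in static cells, 63 were higher and 47 lower in CAV1-/- cells, and the unadjusted p was 0.05 or less for 9 that were higher and 9 that were lower, against 377 and 740 of the 13665 genes. Upon stretch, averaged over genotypes, 41 were higher and 69 lower, against 47.7% of all genes higher and 52.3% lower.

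Glutathione S-transferases, which attach glutathione to reactive compounds, were lower upon stretch for 13 of the 16 measured members when averaged over genotypes, with a median log2 difference of -0.27 against -0.0093 for all genes, and 7 were lower in 4 of 4 animals, as were 16.9% of all genes. Between genotypes, 13 of the 16 were lower in CAV1-/- cells when stretched (median -0.45) and 10 of the 16 when static (median -0.22). The medians over all genes were 0 and -0.013. Several members of this family are near copies of each other, so the split of reads between them is uncertain. Ephx1, the microsomal epoxide hydrolase from the list of other detoxifying targets, was lower upon stretch in all 4 animals, going from 225 to 119 and from 152 to 107 CPM in WT replicates 1 and 2 and from 122 to 76.1 and from 106 to 56.9 CPM in CAV1-/- replicates 1 and 2. Its average log2 difference was -0.75 (SE 0.16) with an adjusted p of 0.984, which became 0.0291 with the animal as a block and 0.0383 by DESeq2. Ephx1 was also lower in CAV1-/- than in WT cells, with log2 differences of -0.70 static and -0.77 stretched (SE 0.23 in each, limma adjusted p = 0.479 and 0.541).

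Among the regulators, Keap1 was 77.4 and 70.4 CPM in static WT and 53.7 and 62.8 CPM in static CAV1-/- cultures, without overlap, as for 20.8% of all genes in this direction (log2 difference -0.34, SE 0.13, adjusted p = 0.550). The NRF2-related factor Nfe2l3 was low, at 6.71 and 16.6 CPM in static WT and 1.48 and 5.76 CPM in static CAV1-/- cultures (log2 difference -1.51, SE 0.82, adjusted p = 0.756). The median of the 12 regulators differed by 0.016 between genotypes in static cells.

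Glrx, the glutaredoxin that removes glutathione from protein thiols, was 11.7 and 15.4 CPM in static WT and 30.9 and 33.3 CPM in static CAV1-/- cultures. The groups did not overlap, as for 16.1% of all genes in this direction. The log2 difference was 1.197 (SE 0.18, adjusted p = 0.101), and 1.25 without CAV1-/- replicate 1. Prdx6, a peroxiredoxin, was likewise higher in static CAV1-/- cells (384 and 293 against 222 and 212 CPM, log2 difference 0.62, SE 0.17, adjusted p = 0.338), and so was Sod2, the mitochondrial superoxide dismutase (116 and 177 against 81.1 and 64.6 CPM, log2 difference 0.98, SE 0.35, adjusted p = 0.525). Fth1, the ferritin heavy chain, was 4192 and 2467 CPM in static CAV1-/- and 2193 and 1721 CPM in static WT cultures (log2 difference 0.73, SE 0.33, adjusted p = 0.676), with its highest values in CAV1-/- replicate 1.

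In the same glutathione list, Abcc4, an exporter of glutathione and conjugates, was 53.0 and 40.5 CPM in static CAV1-/- against 21.8 and 21.2 CPM in static WT cultures (log2 difference 1.07, SE 0.33, adjusted p = 0.427). Ggct, the gamma-glutamylcyclotransferase, was 9.31 and 15.7 CPM in stretched CAV1-/- against 36.1 and 31.7 CPM in stretched WT cultures (log2 difference -1.41, SE 0.24, adjusted p = 0.197). Gstt2, a glutathione S-transferase, was low in all static cultures, at 3.21 and 1.13 CPM in CAV1-/- and 10.1 and 5.57 CPM in WT cells (log2 difference -1.51, SE 0.47, adjusted p = 0.446). Of the glucocorticoid-responsive genes, the transcription factor Cebpd was 38.7 and 64.3 CPM in static CAV1-/- and 18.5 and 16.3 CPM in static WT cultures (log2 difference 1.47, SE 0.50, adjusted p = 0.488). Groups without overlap were a condition for naming these 4 genes, and none of the 4 passed the adjusted test in the main limma fit. In static cells, 16.1% of all genes lay wholly higher in CAV1-/- cultures and 20.8% wholly lower. The share for stretched cells, the comparison used for Ggct, is not given here.

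In the metal response list, the zinc and manganese importers Slc39a8 and Slc39a14 went opposite ways between genotypes. Slc39a8 was 92.4 and 82.8 CPM in static WT and 22.1 and 13.8 CPM in static CAV1-/- cultures, a log2 difference of -2.26 (SE 0.50, adjusted p = 0.222) that was -2.58 without CAV1-/- replicate 1. Slc39a14 was 39.5 and 53.2 CPM in static WT and 71.5 and 89.5 CPM in static CAV1-/- cultures (log2 difference 0.79, SE 0.24, adjusted p = 0.419). Mt3, a metallothionein best known from brain, was at 0.350 and 0.242 CPM in static WT cultures and at 8.49 and 0.617 CPM in CAV1-/- replicates 1 and 2, where 3 reads correspond to 0.146 to 0.308 CPM.

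**Figure D5:**
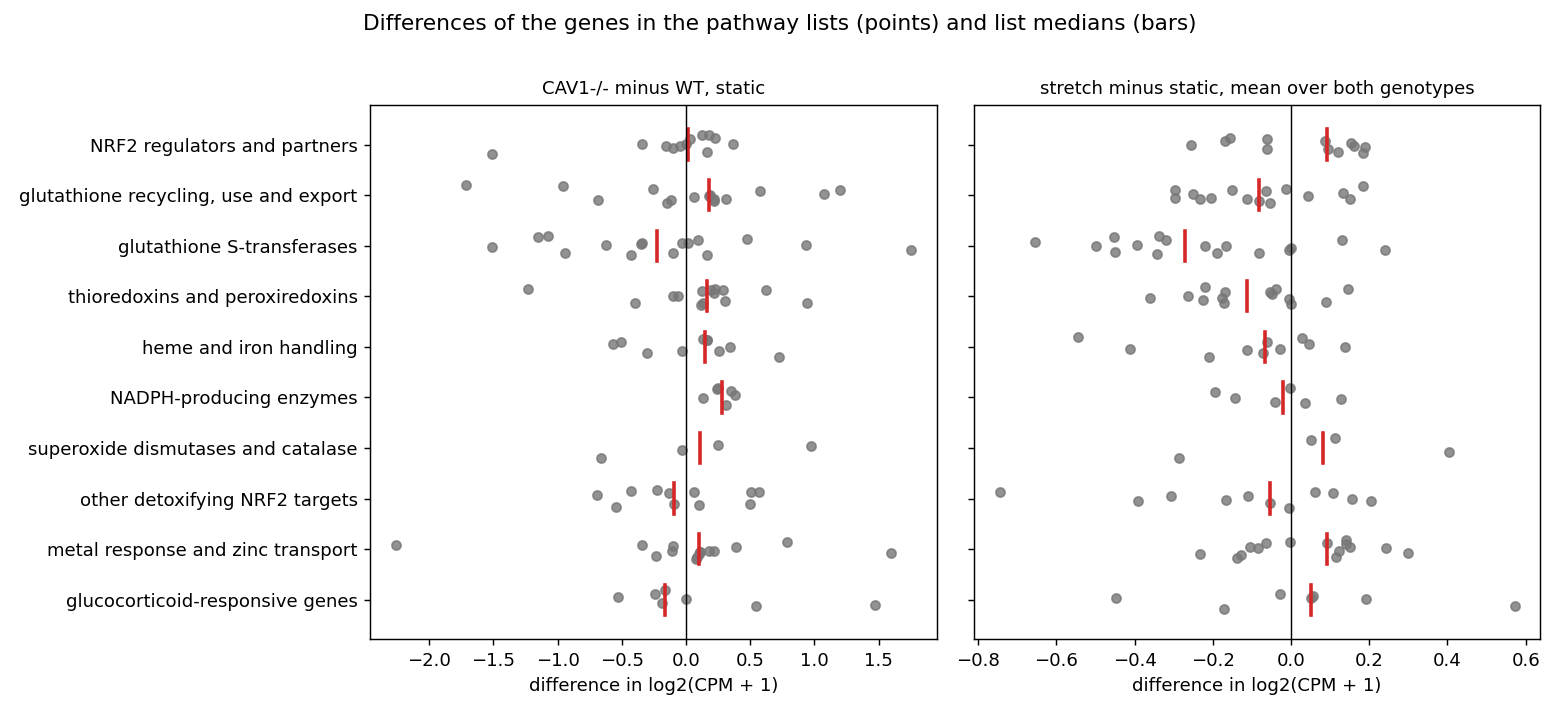
Log2 differences in log2(CPM + 1) (x axis) of the 110 tested genes of the 10 pathway lists (rows), each point 1 gene and each red bar the list median, for CAV1-/- minus WT in static cells (left) and stretched minus static averaged over genotypes (right). Points scatter on both sides of 0 in nearly every list, Slc39a8 is the leftmost point on the left at -2.26, and the glutathione S-transferases have the lowest median on the right at -0.27.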

How the data were processed

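The 8 poly(A) libraries had been sequenced as single reads of 61 bases. Per the labels and the study's methods, the authors used CASAVA, cutadapt and RSEM on the GRCm38 transcriptome and deposited a signal, normalised expected counts per 1000000 reads (CPM), for 13687 genes. Strand in counting was not given in the sources used here. All values were whole multiples of 1 read (100% within 0.01 read), so reads were recovered for count tests. Levels are the deposited CPM. All 10 genes passed a filter of at least 1 CPM in at least 2 libraries, which left 13665 genes. Limma 3.58.1 (R 4.3.3; empirical Bayes with trend) was fitted to log2(CPM + 1) with 1 mean per group over all libraries, for 6 contrasts, with Benjamini-Hochberg adjustment over all genes. EdgeR 4.0.16 and DESeq2 1.42.0 on recovered reads were alternatives, and the scripts were tested on simulated data.

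The labels give static and stretched cultures of 1 number and genotype the same animal. Their deviations from group means correlated over genes at 0.703 (WT) and 0.850 (CAV1-/-), so the animal was a block in alternative fits of stretch. Replicates are animals, 2 per genotype. The main fit took the 2 cultures of an animal as independent when it estimated the spread. The 10 genes, the pathway and marker lists and the tests were chosen with earlier results of these data known. Pathway genes described singly are a selection, made with the values known, from those that passed the adjusted test, or were among the 3 largest differences per list and comparison with an unadjusted p of 0.05 or less, with or without the block, and groups that did not overlap or 4 of 4 animals alike. The genes named for the split between replicates and for position or motif reasons were chosen after their values were seen. Gene positions came from GENCODE M21 (13597 of 13687 identifiers matched) and upstream windows from RefSeq (8 of 10 genes matched).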

Additional observations from a re-analysis of the deposited data

Results flagged for a closer look

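In 7 of the 110 genes of the pathway lists (6.36%, against 4.11% of all genes tested), the stretched culture was higher than the static one in both WT animals and lower in both CAV1-/- animals. They were Rbx1, Gsr, Glrx, Prdx5, Blvra, Cbr1 and Akr1b8, of which 4 also met the rule for naming. For these 4, the difference between the stretch effects (CAV1-/- minus WT, log2) was -0.62 for Akr1b8, an aldo-keto reductase, and -0.53 for Glrx, the glutaredoxin. It was -0.36 for Gsr, the glutathione reductase, and -0.27 for Rbx1, a subunit of the ligase that degrades NRF2. The interaction test gave an adjusted p of 1 for each of the 4 (limma), and none of the 10 main genes had this pattern. Of all genes tested, 16.3% had stretch effects that were lower in both CAV1-/- animals than in both WT animals.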

How the results depend on the processing

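Of the fold changes given for single genes, 37 were checked under other settings, and the rest, such as that of Nqo1 averaged over genotypes, were not. These 37 kept their direction in all 493 values from alternatives that left out no single culture, and 480 of the values kept their side of the threshold. The alternatives used other pseudocounts, filters, scalings and tests, a block, and, chosen after seeing the data, all but the CAV1-/- replicate 1 cultures. The other 13 values passed the threshold where the reported fit did not, all with a block or by DESeq2. By DESeq2, the adjusted p was 0.0402 for Slc7a11, 0.000117 for Glrx, 0.00255 for Slc39a8, 0.000898 for Ggct and 0.0383 for Ephx1. By limma with the block, it was 0.0251 for Glrx, 0.0281 for Slc39a14, 0.027 for Nfe2l3, 0.0364 for Gstt2 and 0.0291 for Ephx1. By edgeR with the block, it was 0.0269 for Glrx, 0.0327 for Slc39a14 and 0.0375 for Ephx1. The cause was not tested.

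Leaving out 1 culture turned the direction in 15 of 184 values. For Hmox1 between genotypes the range was -1.26 to 0.61 in static and -1.09 to 0.23 in stretched cells. In stretched cells, Mt1 ranged from -1.40 to 0.0049 and Mt2 from -1.64 to 0.31 between genotypes. Upon stretch, Mt1 ranged from -1.17 to 0.24 in WT, and Mt2 from -1.60 to 0.35 in WT and from -0.96 to 0.17 in CAV1-/- cells. The interaction ranged from -0.55 to 0.86 for Mt1 and from -0.74 to 1.21 for Mt2. With 1 culture left in a group, that culture is assumed to vary like the others. These fits did not pair the 2 cultures of an animal, so differences between animals entered the stretch effects and the interaction. Within animals, Mt1 and Mt2 were lower upon stretch in 4 of 4.

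Counts over all genes moved more. Between genotypes in static cells they were 309 (DESeq2), 2 (edgeR), 6 (limma without trend), 0 (animal means, only the 4 libraries compared, or without CAV1-/- replicate 1) and 1117 at an unadjusted p of 0.05 or less, and 0 to 5 with 1 culture left out. In stretched cells they were 238 (DESeq2), 0 (the same 3 alternatives), 856 (unadjusted) and 0 to 5 with 1 culture left out. DESeq2 called 3 genes upon stretch in WT, 7 in CAV1-/- cells and 39 in the average. Unadjusted counts were 310 (WT), 286 (CAV1-/-), 647 (average) and 66 (interaction). Of the 10 genes, DESeq2 called 1 (Slc7a11) and the unadjusted p 1 (Nfe2l2), both in static cells between genotypes.

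With the animal as a replicate block, 1 gene was called upon stretch in CAV1-/- cells (2 by edgeR) and 201 in the average (152 by edgeR), none of them among the 10. WT and CAV1-/- cultures share only a number, not an animal. As a block, that number raised the calls between genotypes to 246 static (229 by edgeR) and 110 stretched (92 by edgeR), again with none of the 10, and same-numbered cultures of different genotype correlated in their deviations at 0.522 static and 0.484 stretched. The sources used here do not say what the number marks across genotypes.

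The lowest value of the 10 genes rested on 169 reads, and no test at equal depth was made.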
